A study of Rattus norvegicus with 6 samples.

Results

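The genes described here are 34 genes of glycolysis and of the handling of its end products, pyruvate and lactate. They were chosen by name for their place in the pathway, with earlier results of these data known. They were found by their symbols in the count tables, where they make up 34 of 17327 genes. Of the 34, 31 had at least 1 count in some library and 30 passed the filter on low counts, which 9740 genes passed in all. RNA was measured in primary Schwann cells, the glial cells that wrap and nourish peripheral axons, which had been grown from sciatic nerves of adult Wistar rats. The 3 independent cell preparations, numbered 1, 2 and 3 and called cultures below, each gave 1 mock and 1 NRG1 library, so that each group has n = 3. The NRG1 cells received 10 nM soluble NRG1β1 for 6 h, and the mock cells received the buffer of the ligand, PBS with albumin. Both groups had been starved for 18 h in medium with 2% serum and 10 μM forskolin, an activator of adenylyl cyclase, and stayed in that medium during the stimulation. Before starvation all cells had grown in serum and forskolin with a neuregulin-type growth factor, named glial growth factor in the labels and recombinant NRG1β1 in the methods of the study, so the mock cells too had met such a ligand.

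Glycolysis splits glucose into pyruvate in the cytosol. Glucose enters through carriers of the Slc2a family and is trapped by hexokinases, and the pathway is then committed by phosphofructokinase, the step that cells regulate most. Pyruvate is either reduced to lactate by lactate dehydrogenase and carried out of the cell by monocarboxylate transporters of the Slc16a family, or enters mitochondria, where pyruvate dehydrogenase turns it into acetyl-CoA unless pyruvate dehydrogenase kinases switch that enzyme off. Myelinating glia are known for exporting lactate, which axons can burn, and this transfer is what the name lactate shuttle refers to.

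Counts on genes ranged from 6821590 to 15475018 per library, and levels are given below as CPM, which are counts scaled to the size of each library after TMM normalization. A level of 3 counts, taken as the lowest that the depth can show, was between 0.194 and 0.444 CPM. The cells were checked against marker genes. The 13 Schwann cell markers in the files, Sox10 among them, were all detected, and their summed level was between 5350 and 17312 CPM. Culture 1 stood apart. Its mock and NRG1 libraries had the lowest summed Schwann cell markers of their groups, and they contained fibroblast markers that were at 0 in all 4 libraries of cultures 2 and 3, with 1268 and 1143 CPM of Thy1 and 611 and 427 CPM of Dcn. The 10 fibroblast markers summed to 54645 and 58963 CPM in culture 1 and to between 13924 and 22740 CPM in the other 4 libraries, where the collagen gene Col1a1 gave most of the sum. Markers of macrophages and leukocytes summed to at most 10.4 CPM, and 3 of the 8 endothelial and perineurial markers, Pecam1, Cdh5 and Cldn5, were at 0 in every library. The 8 summed to between 427 and 521 CPM in mock and between 356 and 411 CPM in NRG1 libraries, nearly all of it from Tjp1, a tight junction protein gene of many cell types. The 2 of them that were tested, Tjp1 and Tek, were lower with NRG1 in each culture and did not pass (log2 fold changes -0.32 and -0.62, adjusted p = 0.094 and 0.028), and the part of this in the results was not tested. In bulk RNA, more cells of a type and more RNA per cell cannot be told apart. Because every culture gave both a mock and an NRG1 library, the change was tested within cultures, and results that rest on culture 1 are also given without it.

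Several members have pseudogenes named after them, and how far these share reads with the members was not measured. In the RefSeq gene table of the GRCr8 rat assembly, 198 pseudogenes carry the names of 11 members, with 82 named after Gapdh, 31 after Eno1, 30 after Ldha and 19 after Pkm. Alignments in more than 1 place were kept out of the gene counts, and these made up 24.5%, 26.1% and 28.7% of the alignments in mock libraries 1, 2 and 3 and 26.4%, 28.9% and 29.9% in NRG1 libraries 1, 2 and 3. This share was higher with NRG1 in each culture, and its part in the changes of the genes with such pseudogenes was not tested. Slc2a3, Tpi1 and Eno2 were listed at 0 in all 6 libraries. Tpi1 encodes triose phosphate isomerase, which every cell with glycolysis needs, so a listing at 0 is not read here as absence of the transcript. Among the counted genes, in their order in GRCr8, Eno2 and Tpi1 lie in a row of 6 with Grcc10, Atn1, Lrrc23 and Spsb2. None of the 6 had more than 1 count over the 6 libraries together.

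NRG1 raised the RNA of 9 of the 30 tested members and lowered that of 5, at an adjusted p of at most 0.01 in edgeR's quasi-likelihood test with the culture as a block. Of all 9740 genes tested, 6.31% were higher and 5.51% were lower by the same rule. The 9 that rose were Slc2a1, Hk1, Hk2, Pfkl, Pgk1, Pgam1, Eno1, Pkm and Ldha, which include a carrier or enzyme for most steps from glucose entry to lactate. The 5 that fell were the isoenzymes Pfkm and Aldoc and the regulators Pfkfb2, Pdk2 and Pdk4. Several of the 9 that rose, such as Hk1, Hk2 and Pfkl, are isoenzymes as well. The log2 fold changes of the 9 lay between 0.56 and 1.16, and those of the 5 between -1.73 and -0.62. Over the 30 tested members the median log2 fold change was 0.25, beside -0.03 over all genes tested. Only Hk2, Pfkl and Pdk4 also exceeded an absolute log2 fold change of 1, and 3.47% of all genes tested passed both thresholds. In 14 members the NRG1 level was higher in each of the 3 cultures and in 9 it was lower in each, and these shares over all genes tested were 25.9% and 30%. The 3 NRG1 libraries lay above all 3 mock libraries in 9 members and below all of them in 4, against 10.2% and 9.94% of all genes tested. Of the 9 members that rose, Slc2a1, Hk1, Hk2 and Pfkl have no pseudogenes named after them in the gene table, and Pgk1, Pgam1, Eno1, Pkm and Ldha have. None of the 5 that fell has one. Leaving out culture 3 reduced the counts to 4 higher and 1 lower. Leaving out culture 1, the one with the highest summed fibroblast markers, gave 7 higher and 5 lower. Of all genes tested in these fits, 4.02% were higher and 2.49% lower without culture 3, and 5.94% and 6.05% without culture 1.

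**Figure D1:**
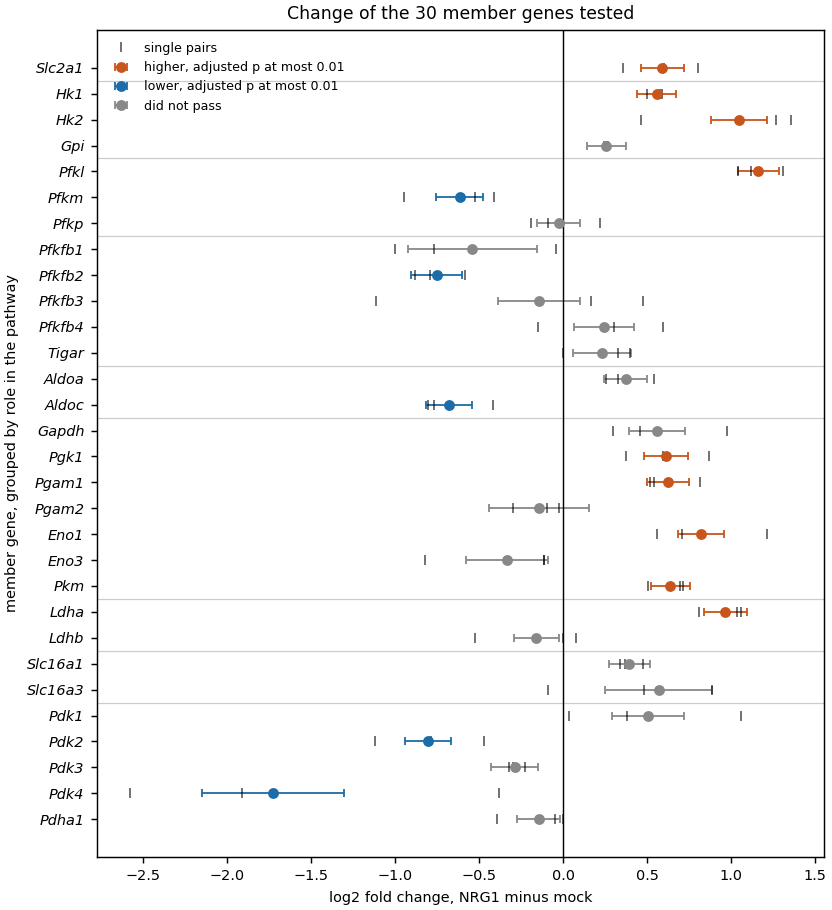
Log2 fold change (NRG1 minus mock, x axis) of the 30 tested members, grouped by role in the pathway from glucose entry at the top to pyruvate dehydrogenase at the bottom. Circles with bars are the estimate and its standard error, short black ticks are the single cultures, and colour marks the 9 members that rose, the 5 that fell and the 16 that did not pass.

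The promoters of 6 of these genes are shown: Pfkl, Hk2 and Ldha, which had the 3 largest rises, Pdk4 and Pdk2, which had the 2 largest falls, and Slc2a1, the glucose carrier with which the pathway starts. Each line gives the 250 bases before the annotated start, from RefSeq on GRCr8, written 5′ to 3′ on the strand of the gene. Capitals mark ACGTG or GCGTG on either strand, so that CACGT and CACGC are the same letters read from the other strand. ACGTG and GCGTG are the core letters at which hypoxia-inducible factors can bind, and CACGTG, which contains ACGTG, is the E-box read by Myc and related factors.
Ldha, chr1:106507842-106508091, plus strand: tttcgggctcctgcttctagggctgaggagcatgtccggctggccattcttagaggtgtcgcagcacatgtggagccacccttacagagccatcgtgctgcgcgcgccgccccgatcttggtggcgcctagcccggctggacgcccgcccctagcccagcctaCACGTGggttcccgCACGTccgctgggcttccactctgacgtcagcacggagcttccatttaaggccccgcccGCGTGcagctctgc
Pfkl, chr20:10663715-10663964, plus strand: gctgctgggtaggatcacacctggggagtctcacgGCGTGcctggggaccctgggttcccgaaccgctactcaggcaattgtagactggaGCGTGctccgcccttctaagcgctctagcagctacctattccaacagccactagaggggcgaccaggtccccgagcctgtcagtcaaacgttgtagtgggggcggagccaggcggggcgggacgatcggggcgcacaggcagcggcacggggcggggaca
Slc2a1, chr5:138002272-138002521, plus strand: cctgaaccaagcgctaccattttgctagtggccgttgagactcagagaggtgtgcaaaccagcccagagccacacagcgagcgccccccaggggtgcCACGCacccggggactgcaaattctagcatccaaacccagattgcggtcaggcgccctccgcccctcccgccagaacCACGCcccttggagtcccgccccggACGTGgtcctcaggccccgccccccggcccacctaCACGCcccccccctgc
Pdk2, chr10:80483913-80484162, minus strand: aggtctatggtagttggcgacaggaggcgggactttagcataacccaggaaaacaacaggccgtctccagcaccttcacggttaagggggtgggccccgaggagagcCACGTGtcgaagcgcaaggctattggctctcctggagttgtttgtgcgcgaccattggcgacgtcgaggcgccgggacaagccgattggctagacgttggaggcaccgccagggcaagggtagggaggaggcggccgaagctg
Hk2, chr4:116841276-116841525, minus strand: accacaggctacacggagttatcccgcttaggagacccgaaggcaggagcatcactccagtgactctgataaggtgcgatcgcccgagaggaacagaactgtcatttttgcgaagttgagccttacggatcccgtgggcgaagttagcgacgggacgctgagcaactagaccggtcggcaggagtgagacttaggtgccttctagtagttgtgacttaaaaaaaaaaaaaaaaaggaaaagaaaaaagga
Pdk4, chr4:34568330-34568579, minus strand: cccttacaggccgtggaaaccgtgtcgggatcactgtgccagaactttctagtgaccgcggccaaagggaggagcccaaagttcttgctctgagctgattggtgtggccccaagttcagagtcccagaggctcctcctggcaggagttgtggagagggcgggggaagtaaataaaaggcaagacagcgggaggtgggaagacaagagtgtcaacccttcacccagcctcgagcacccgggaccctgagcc
Of the 34 members, 32 were matched to a promoter by symbol, and a gene with several annotated starts was counted as holding a motif if any of its windows did. ACGTG occurred in 14 of these 32 (43.8%) and in 18.1% of the 27457 genes in the table, and GCGTG occurred in 13 (40.6%) and in 28.4%. Among the members that rose, 4 of 8 with a promoter held ACGTG, and among those that fell, 3 of 5 did. GCGTG was held by 5 of the 8 that rose and by 1 of the 5 that fell. The windows of Hk2 and Pdk4 held neither. The E-box CACGTG was found in 4 of 32 members (12.5%) and in 6.18% of all genes, and both Ldha, which rose, and Pdk2, which fell, held it. These are counts of letters in few genes, and no test was made of them.

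At glucose entry, the carrier and both hexokinases rose. Slc2a1, which encodes the carrier GLUT1 of most cells, had levels of 55.2, 43.4 and 45.7 CPM in mock cultures 1, 2 and 3 and of 96.3, 55.5 and 69.3 CPM with NRG1. All 3 NRG1 libraries were above all mock libraries, and the log2 fold change was 0.59 (standard error, SE, of 0.13, adjusted p = 0.0045). Its adjusted p was 0.051 without culture 1 and 0.024 without culture 3. Hk1, the hexokinase that most tissues use, went from 172.0, 177.7 and 198.6 CPM to 256.8, 251.5 and 298.8 CPM, so that the groups did not overlap and the cultures differed little from each other. Its log2 fold change was 0.56 (SE 0.12, adjusted p = 0.0036), with an adjusted p of 0.016 without culture 1 and 0.031 without culture 3. Hk2, the hexokinase of insulin-sensitive and proliferating cells, had 29.1, 28.4 and 18.8 CPM in mock and 74.9, 39.2 and 45.4 CPM in NRG1 cells, a log2 fold change of 1.05 (SE 0.17, adjusted p = 0.00056). The rise was more than 2-fold in cultures 1 and 3 and smaller in culture 2, where the log2 ratio was 0.46. Its log2 fold change was 0.89 without culture 1, 1.32 without culture 2 and 0.95 without culture 3, so that it passed the adjusted p each time but exceeded 1 only without culture 2. Gpi, the isomerase that follows, had a log2 fold change of 0.26 (SE 0.12, adjusted p = 0.13), and its 3 single ratios lay between 0.24 and 0.27.

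The 3 subunit genes of phosphofructokinase, the enzyme that commits sugar to glycolysis, went separate ways. Pfkl, the liver-type subunit, had the largest rise of the members tested. Its level was 80.8, 46.0 and 78.8 CPM in mock cultures 1, 2 and 3 and 175.4, 94.9 and 195.9 CPM with NRG1, a log2 fold change of 1.16 (SE 0.12, adjusted p = 2.1e-05). It more than doubled in each culture, and its log2 fold change lay between 1.10 and 1.22 with each culture left out in turn. Pfkm, the muscle-type subunit, went down from 57.1, 41.7 and 48.2 CPM to 42.9, 21.6 and 33.5 CPM, a log2 fold change of -0.62 (SE 0.14, adjusted p = 0.0059). It was lower with NRG1 in each culture although the groups overlapped, and the call was lost without culture 2 (adjusted p = 0.015), without culture 3 (0.024) and in DESeq2 (0.014). Pfkp, the platelet-type subunit, had 41.6, 60.4 and 61.3 CPM in mock and 48.4, 52.8 and 57.5 CPM in NRG1 cells, and its log2 fold change of -0.03 (SE 0.13, adjusted p = 0.90) changed sign between cultures.

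Fructose 2,6-bisphosphate, the strongest activator of phosphofructokinase, is made and removed by the Pfkfb enzymes, and Tigar removes it as well. Of these 5 genes only Pfkfb2, the heart-type enzyme, passed the test. It fell from 25.1, 24.6 and 20.7 CPM to 14.4, 13.3 and 13.8 CPM, with all NRG1 libraries below all mock libraries and a log2 fold change of -0.75 (SE 0.15, adjusted p = 0.0031). The adjusted p was 0.011 without culture 2, 0.013 without culture 3 and 0.014 in DESeq2. Pfkfb3, the inducible isoenzyme that favours synthesis of the activator, had log2 ratios of 0.48, -1.11 and 0.16 in cultures 1, 2 and 3, so that culture 2 went the other way from the rest. Its overall log2 fold change was -0.14 (SE 0.24, adjusted p = 0.71). Pfkfb4 and Tigar had log2 fold changes of 0.24 and 0.23 with adjusted p of 0.35 and 0.37, and Pfkfb1, counted only 7 to 26 times per library, had -0.54 (SE 0.38, adjusted p = 0.34).

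The aldolases, which cleave the 6-carbon sugar, also differed. Aldoc, the isoenzyme typical of brain, fell from 28.6, 39.4 and 51.3 CPM to 21.3, 23.0 and 29.2 CPM. The log2 fold change was -0.68 (SE 0.14, adjusted p = 0.0030), with an adjusted p of 0.061 without culture 3, and NRG1 culture 3 reached just above mock culture 1. Aldoa, the widespread isoenzyme, had 531.3, 709.5 and 738.5 CPM in mock and 771.5, 888.9 and 881.0 CPM in NRG1 libraries. The NRG1 libraries were all above the mock libraries, but its log2 fold change of 0.37 (SE 0.13, adjusted p = 0.047) did not pass the threshold of 0.01.

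Below the triose stage, the members form a chain from 3-carbon phosphates to pyruvate, and 4 of its 7 tested genes rose while none fell. Eno1, the widespread enolase, went from 122.0, 70.9 and 98.1 CPM to 180.0, 164.6 and 160.2 CPM, which put all NRG1 libraries above all mock libraries. Its log2 fold change was 0.82 (SE 0.14, adjusted p = 0.00075), the largest of this chain, and the call held with each culture left out. Pgam1, a phosphoglycerate mutase, rose from 344.1, 417.1 and 466.4 CPM to 500.3, 735.2 and 666.8 CPM, again without overlap, with a log2 fold change of 0.62 (SE 0.13, adjusted p = 0.0028). Pgk1, the kinase that makes the first ATP of this stage, had 434.7, 253.9 and 283.9 CPM in mock and 563.7, 464.2 and 428.9 CPM in NRG1 cells. Here mock culture 1 lay above NRG1 culture 3, but the level rose within each culture, with a log2 fold change of 0.61 (SE 0.13, adjusted p = 0.0041). Pkm, the pyruvate kinase outside liver and red cells, rose from 102.2, 58.9 and 61.1 CPM to 145.3, 95.5 and 100.3 CPM, a log2 fold change of 0.64 (SE 0.12, adjusted p = 0.0016). The calls of Pgk1, Pgam1 and Pkm were lost without culture 3, where their adjusted p was 0.023, 0.013 and 0.014, and that of Pgk1 also without culture 2, with 0.016. Gapdh had between 12.6 and 19.2 CPM in mock and between 22.8 and 24.9 CPM in NRG1 libraries. Its log2 fold change of 0.56 (SE 0.17, adjusted p = 0.025) did not pass. With no low-count filter Gapdh passed in edgeR, with an adjusted p of 0.0086. It has 82 pseudogenes named after it, and alignments in more than 1 place were not counted. Its level is not read here as the abundance of the transcript, and the part of this in its change was not tested. The muscle isoenzymes Pgam2 and Eno3 stayed between 2.13 and 6.51 CPM in every library, and their adjusted p was 0.76 and 0.35.

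**Figure D2:**
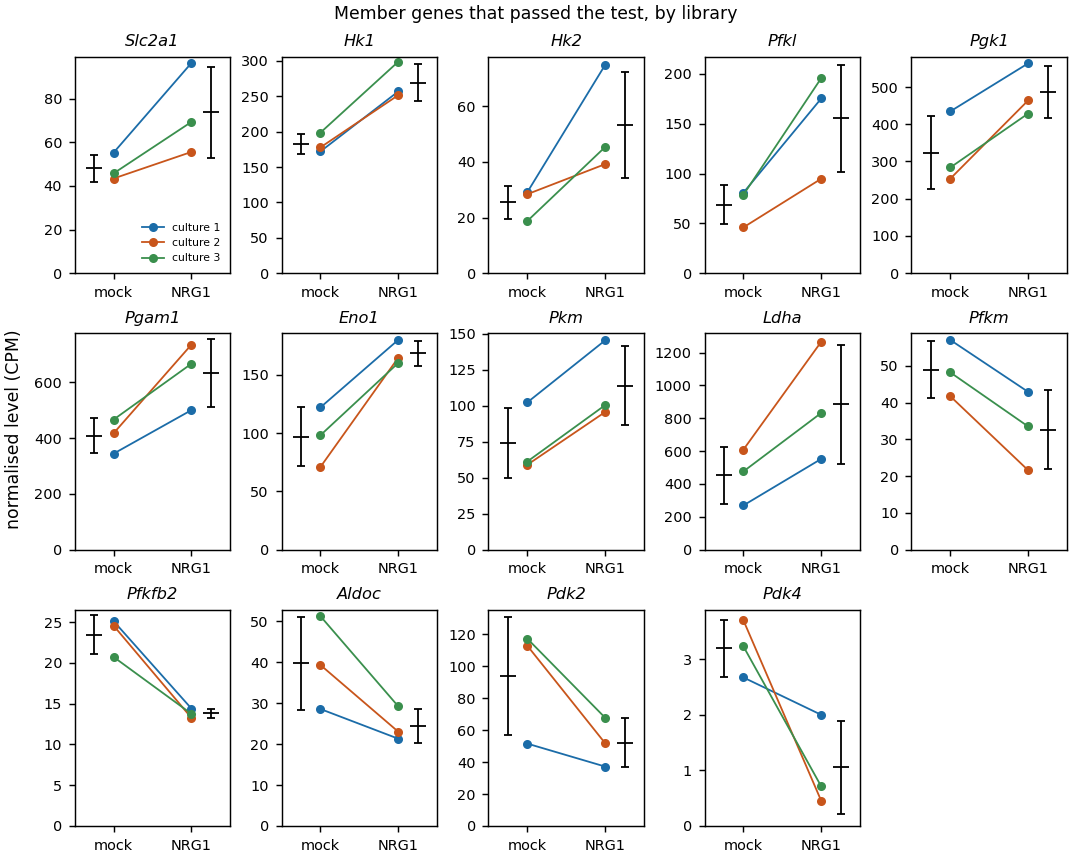
Level in CPM (y axis, from 0) in mock and NRG1 libraries (x axis) of the 14 members that passed the test, 1 panel per gene. Coloured points joined by a line are the 2 libraries of a culture, and black bars are the mean and SD of 3 libraries. Every line of the first 9 panels goes up and every line of the last 5 goes down.

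Of the lactate dehydrogenases, which interconvert pyruvate and lactate, Ldha rose and Ldhb did not pass. Ldha encodes the subunit that prevails in lactate-producing tissues, and its promoter is the first one shown above. Its level was 269.1, 608.9 and 476.0 CPM in mock cultures 1, 2 and 3 and 552.3, 1266 and 832.3 CPM with NRG1. The groups overlapped, because mock culture 2 was above NRG1 culture 1, but the level about doubled within each culture, with log2 ratios of 1.04, 1.06 and 0.81. The log2 fold change was 0.97 (SE 0.13, adjusted p = 0.00012), and it lay between 0.92 and 1.07 with each culture left out. Ldhb, the subunit that prevails in lactate-using tissues, had 69.1, 91.6 and 165.4 CPM in mock and 68.9, 96.8 and 114.8 CPM in NRG1 cells, a log2 fold change of -0.16 (SE 0.14, adjusted p = 0.43).

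None of the monocarboxylate transporters among the members passed the test at 0.01. Slc16a1, which encodes the monocarboxylate transporter MCT1, came closest, with 46.1, 40.8 and 40.8 CPM in mock and 58.3, 57.0 and 52.7 CPM in NRG1 libraries. These groups did not overlap, and the log2 fold change was 0.39 (SE 0.12, adjusted p = 0.032). Slc16a3, the exporter MCT4 of strongly glycolytic cells, was counted only 9 to 42 times per library, and its log2 fold change was 0.57 (SE 0.32, adjusted p = 0.22). Slc16a7, the high-affinity carrier MCT2, had 87 and 61 counts in the mock and NRG1 libraries of culture 1 and 1 to 5 counts in each of the other 4, and did not pass the filter. Basigin (Bsg), the membrane partner that MCT1 and MCT4 need, had a log2 fold change of -0.02 (SE 0.13, adjusted p = 0.92). Slc16a13, a gene of the Slc16a family outside the members, rose with NRG1 (log2 fold change 0.68, SE 0.13, adjusted p = 0.0021).

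At the entry of pyruvate into mitochondria, NRG1 lowered 2 of the 4 kinases that switch off pyruvate dehydrogenase. Pdk2, the most widespread of them, fell from 51.6, 112.9 and 117.3 CPM to 37.2, 51.8 and 67.8 CPM. Mock culture 1 lay at the level of NRG1 culture 2, but the level was lower with NRG1 within each culture, with a log2 fold change of -0.80 (SE 0.14, adjusted p = 0.00087). Its promoter, shown above, holds 1 E-box. Pdk4, the isoenzyme that fasting and FoxO factors induce, had 20, 25 and 41 counts in mock cultures 1, 2 and 3 and 15, 4 and 11 counts with NRG1, or 2.67, 3.70 and 3.23 against 2.00, 0.45 and 0.71 CPM. All NRG1 libraries were below all mock libraries, and the log2 fold change was -1.73 (SE 0.42, adjusted p = 0.0092), the largest fall of the members. That estimate moved to -2.47 without culture 1, where the adjusted p was 3.4e-06, and its adjusted p was 0.054 without culture 2, 0.071 without culture 3 and 0.050 in DESeq2. Pdk3 was lower in each culture by a small amount, with a log2 fold change of -0.29 (SE 0.14, adjusted p = 0.15). Pdk1, a known target of hypoxia-inducible factor, had log2 ratios of 0.03, 0.38 and 1.06 in cultures 1, 2 and 3 and did not pass (log2 fold change 0.50, SE 0.21, adjusted p = 0.10). Pdha1, the catalytic subunit on which these kinases act, had a log2 fold change of -0.14 (SE 0.13, adjusted p = 0.45).

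Ratios of counts within 1 library do not depend on how libraries are scaled, and they show the balance of counts between related members. Counts were not corrected for gene length, so a ratio does not give the balance of transcripts. Ldha has 30 named pseudogenes and Ldhb 1, and Aldoa has 9 and Aldoc 0. The part of these in the ratios was not tested. The ratio of Ldha to Ldhb was 3.90, 6.65 and 2.88 in mock cultures 1, 2 and 3 and 8.01, 13.1 and 7.25 with NRG1, a mean log2 change of 1.12 ± 0.19 (SD, n = 3 cultures). It rose in every culture and by similar amounts. The ratio of Aldoa to Aldoc was 18.6, 18.0 and 14.4 in mock and 36.2, 38.6 and 30.1 with NRG1, a mean log2 change of 1.04 ± 0.07 (SD, n = 3), the most even of the ratios computed. Within phosphofructokinase, the ratio of Pfkp to Pfkl fell by a mean of 1.18 ± 0.26 on the log2 scale (SD, n = 3), and that of Pfkp to Pfkm rose by 0.61 ± 0.16 (SD, n = 3). The ratio of Pdk1 to Pdk2 rose in each culture, by 0.50, 1.52 and 1.87. The ratios of Hk2 to Hk1, Pfkfb3 to Pfkfb2 and Slc16a3 to Slc16a1 went down in culture 2 and up in the others. An exact paired permutation test over 3 cultures cannot give a two-sided p below 0.25, so these 8 ratios are given without a test.

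**Figure D3:**
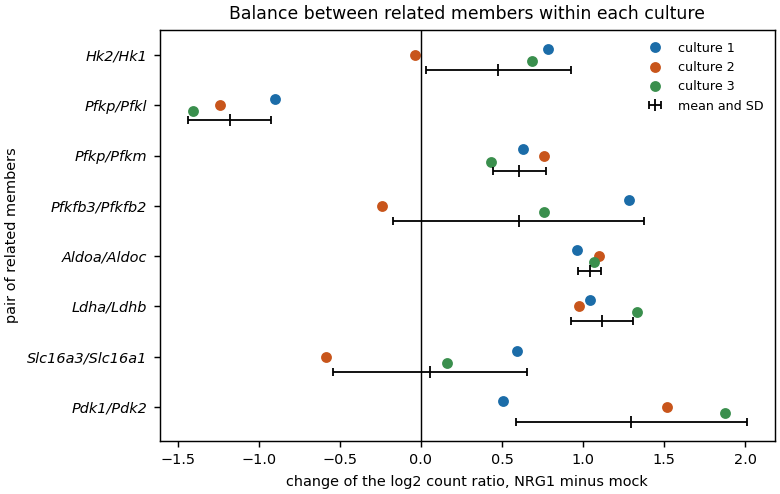
Change of the log2 ratio of counts between related members, NRG1 minus mock (x axis), for 8 pairs of genes (y axis). Coloured points are the 3 cultures and black bars are their mean and SD. Aldoa to Aldoc and Ldha to Ldhb lie near 1 in every culture, and 3 of the pairs have culture 2 on the other side of 0.

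Together the 34 genes took 0.286%, 0.319% and 0.346% of the gene counts in mock cultures 1, 2 and 3 and 0.399%, 0.483% and 0.454% with NRG1. The mean was 0.317% ± 0.030 (SD, n = 3) in mock and 0.446% ± 0.043 (SD, n = 3) in NRG1 libraries, and every NRG1 library was above every mock library. Ldha was the largest single part of the rise, since it took 9.17%, 18.9% and 14.0% of the member counts in mock and 13.4%, 26.4% and 18.3% with NRG1. Without Ldha the share was 0.272% ± 0.022 (SD, n = 3) in mock and 0.358% ± 0.013 (SD, n = 3) with NRG1. No p is given for these sums, since long and abundant transcripts weigh most in them. The sums leave out alignments in more than 1 place, and Slc2a3, Tpi1 and Eno2 enter them at 0. They are shares of the counted reads only, and the part of the uncounted reads in the rise was not tested.

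The cultures differed from each other as much as the treatment changed some members. In mock libraries, 6 of the 30 tested members had a highest level more than 2 times the lowest, and 21.1% of all genes tested did. Pdk1 had 20.8 CPM in mock culture 1 against 5.47 and 6.62 CPM in the others, and Pdk3 had 48.0 against 19.5 and 18.3 CPM. Slc16a7 was at 11.6 and 8.13 CPM in the 2 libraries of culture 1 and between 0.148 and 0.323 CPM elsewhere. Pdk2, Ldha and Ldhb showed the opposite order, with their lowest mock levels in culture 1. Culture 1 is the one with the highest summed fibroblast markers, whose part in these differences was not tested, and a single culture has no replicate of its own.

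**Figure D4:**
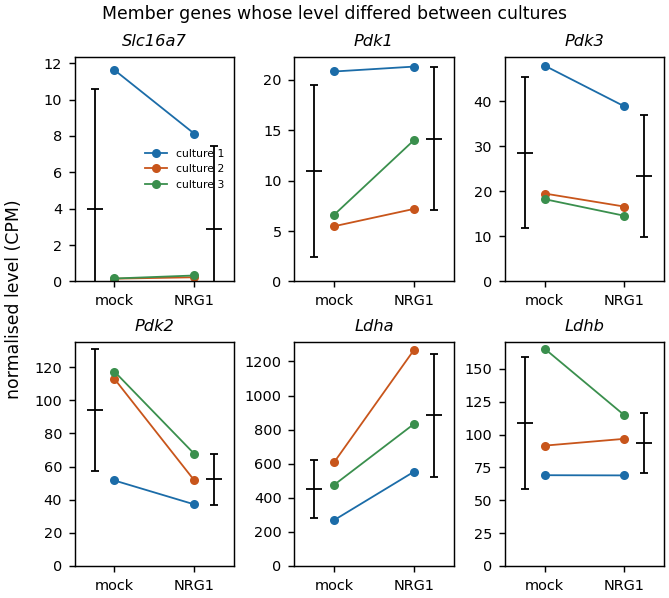
Level in CPM (y axis, from 0) of 6 members in mock and NRG1 libraries (x axis). Coloured points joined by a line are the 2 libraries of a culture, and black bars are the mean and SD of 3 libraries. Slc16a7, Pdk1 and Pdk3 are highest in culture 1 in both conditions, and Pdk2, Ldha and Ldhb are lowest there in both.

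The metabolic genes around the members were described in the same way. In 9 lists that hold other carriers and enzymes of glucose and lactate, the pentose phosphate pathway, glycogen, hexosamine, gluconeogenesis, pyruvate entry, the TCA cycle, NADH shuttles and the hypoxia-inducible factor system, 121 genes were tested, and 5 (4.13%) rose and 6 (4.96%) fell. All genes tested gave 6.31% and 5.51%, and here the median log2 fold change was -0.01. The largest rise was that of Gpd1, the cytosolic glycerol-3-phosphate dehydrogenase of an NADH shuttle, at a low level of 1.20, 0.740 and 1.73 CPM in mock and 4.93, 2.02 and 5.29 CPM with NRG1 (log2 fold change 1.70, SE 0.31, adjusted p = 0.0016). Prps1, which draws ribose phosphate from the pentose pathway for nucleotides, rose by 0.77 (SE 0.15, adjusted p = 0.0018), as the only one of 10 tested genes of that list. Among 20 genes of the TCA cycle only Mdh2, a malate dehydrogenase, rose (0.52, SE 0.13, adjusted p = 0.0082) at the threshold, and no gene of that list rose with any 1 culture left out. Of these 20, 11 were higher with NRG1 in each of the 3 cultures, against 25.9% of all genes tested. Of 17 other glucose and lactate genes, Slc16a13 and Minpp1 rose by 0.68 and 0.60 and Slc2a13, a carrier of inositol, fell by 0.69 on the log2 scale, with adjusted p of at most 0.0081. Gbe1, the glycogen branching enzyme, fell by 0.57 (adjusted p = 0.0080), and in the hexosamine list Gnpda2 and Renbp fell by 0.81 and 0.58 (adjusted p = 0.0019 and 0.0089). None of the 13 tested genes of pyruvate entry and none of the 4 of gluconeogenesis passed in the edgeR fit reported or in DESeq2. In that edgeR fit 2 in each list had an unadjusted p under 0.05, as had 3479 of all 9740 genes tested. With no low-count filter, 1 gene of the gluconeogenesis list was lower.

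In the list of the hypoxia-inducible factor system and its targets outside glycolysis, 0 of 19 tested genes rose and 2 fell in edgeR. DESeq2 gave 0 and 3. In edgeR 6 of the 19 had an unadjusted p under 0.05, as had 3479 of all 9740 genes tested. Hif1a, the oxygen-regulated subunit, had a log2 fold change of -0.10 (SE 0.13, adjusted p = 0.63). Ddit4, an inhibitor of mTORC1, fell by 0.69 (SE 0.14, adjusted p = 0.0034), and Mxi1, an antagonist of Myc, fell by 0.62 (SE 0.12, adjusted p = 0.0018). Among the Schwann cell markers, 6 of 13 were lower with NRG1 and none was higher, so the rise of the 9 glycolytic members took place in libraries in which markers such as Mbp went down, and the part of that shift was not tested. None of the 5 tested fibroblast markers passed in the edgeR fit reported or in DESeq2. Of these 5, Col3a1 and Pdgfrb had an unadjusted p under 0.05 in edgeR, as had 3479 of all 9740 genes tested. The median log2 fold change of the 5 was -0.42. Thy1 and Dcn, which were at 0 in cultures 2 and 3, did not pass the low-count filter and were not tested in that fit. With RLE scaling or with no low-count filter 1 of the 10 fibroblast markers was lower, and without culture 1, 2 were. The part of this in the members' changes was not tested.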

How the data were processed

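Poly(A) RNA of 6 libraries was sequenced on an Illumina NextSeq after TruSeq preparation. The authors mapped the reads to rn5 with TopHat 2.0.10, made raw counts per RefSeq gene with htseq and deposited these counts for 17327 symbols without normalization. The strand setting is not given in the sources used here. The summary lines of htseq were kept out of library sizes, and 47.0% to 49.9% of alignments were on genes.

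Groups and culture numbers came from the labels. Genes were filtered with filterByExpr (minimum count 10), scaled by TMM and tested across all 9740 genes with edgeR 4.0.16 in R 4.3.3 (quasi-likelihood, replicate block, Benjamini-Hochberg adjustment). The standard error is the log2 fold change over the square root of F. Single-culture ratios used log2 CPM with a prior count of 2. Deviations from group means of same-numbered samples correlated across genes with r = 0.91, 0.67 and 0.81 in cultures 1, 2 and 3, which the methods describe as independent cell preparations in independent experiments. Samples with different numbers gave r = 0.51 between cultures 2 and 3, in either combination. With culture 1 in the pair they gave between -0.80 and -0.71. No pair of libraries held the same counts within sampling noise (smallest chi-square over degrees of freedom 22.4). The scripts were tested on simulated counts.

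The members, gene lists and motifs were chosen with earlier results of these data known. All members were named, and from each other list the genes that passed, up to 4 in each direction. Bsg, Hif1a and the marker genes were named outside that rule, after their values were seen. Ratios with Slc2a3 or Eno2, at 0 counts, could not be formed. Alternatives were no replicate block, DESeq2 1.42.0, RLE scaling, no low-count filter, an adjusted p of 0.05, and each replicate left out. The reference tables are of GRCr8, not rn5, and gave names, neighbours and promoters only.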

Additional observations from a re-analysis of the deposited data

How the results depend on the processing

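At the threshold of 0.01 the reported fit had 9 members higher and 5 lower. With no replicate block they were 0 and 0, as 0 of all 9740 genes passed, with 0 past both thresholds and 0 and 0 genes in the other metabolic lists. There the adjusted p of the 14 members lay between 0.18 and 0.41. In that fit 11 members had an unadjusted p under 0.05, as had 1334 of all 9740 genes tested. With DESeq2 and the replicate block they were 9 and 2, as Pfkm, Pfkfb2 and Pdk4 no longer passed. Of all genes tested in DESeq2, 5.77% were higher and 3.89% lower. With 1 replicate left out there were from 4 to 8 members higher and from 1 to 5 lower. In the other metabolic lists there were from 2 to 4 genes higher and from 1 to 9 lower. Of all genes tested in these fits, from 4.02% to 5.94% were higher and from 2.49% to 6.05% lower. With no low-count filter 10 members were higher, as Gapdh passed too, and 5 were lower. The other metabolic lists had 7 genes higher and 12 lower there. Of all genes in that fit, 6.46% were higher and 6.53% lower. At an adjusted p of 0.05, 12 members were higher and 5 lower. The other metabolic lists had 10 of 121 genes higher and 13 lower at that threshold, against 11.5% and 11.7% of all genes tested. Of the 14 members, Hk2, Pfkl, Eno1, Ldha and Pdk2 passed in every alternative that kept the block. RLE scaling changed no member's call. The direction turned only in members that had not passed: over the fits with 1 replicate left out, the log2 fold change of Pfkp ran from -0.14 to 0.053 (0.032 without replicate 3), that of Pfkfb3 from -0.44 to 0.32, and that of Ldhb from -0.28 to 0.061. The cause of these changes was not tested. With 3 cultures, changes of members with few counts, such as Pdk4, Slc16a3 and Pfkfb1, are imprecise.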
